A study of Arabidopsis thaliana with 12 samples.

Results

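The chloroplast genes described here encode molecular chaperones and the CLP and FTSH proteases. They were chosen by name and annotated function, with earlier results of these data known. They are 10 of the 40215 nuclear, organellar and merged gene models in the expression table: the chaperonin subunits *CPN60A* (AT2G28000) and *CPN60B1* (AT1G55490), the stromal HSP70 genes *cpHSC70-1* (AT4G24280) and *cpHSC70-2* (AT5G49910), *HSP90.5* (AT2G04030), the disaggregase *CLPB3* (AT5G15450), the CLP chaperones *CLPC1* (AT5G50920) and *CLPD* (AT5G51070), and the thylakoid protease genes *VAR2* (AT2G30950) and *FTSH6* (AT5G15250). RNA was sequenced from *Arabidopsis thaliana* carrying *gun1-102*, a T-DNA insertion in *GUN1*, whose product is a plastid protein of retrograde signalling, that is, of communication from the plastid to the nucleus. Seedlings of this 1 mutant line fall into 3 cotyledon phenotypes, which were sorted by eye: white (*gun1W*), marbled (*gun1M*) and green (*gun1G*). Each was set against the wild type Col-0, with 3 libraries per group and 12 in all. All groups are in the Col-0 background and had the same age and growth: day 4 on dilute MS medium with 1% sucrose at 22 °C, under 16 h light and 8 h dark at 100 µmol photons per m2 and s, after 2 days of cold in the dark. The labels name cotyledons as the tissue, whereas the methods speak of seedlings.

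Most chloroplast proteins are made in the cytosol and enter the organelle unfolded. Stromal HSP70 and the CLPC ATPase help to pull them in, the chaperonin and HSP90 help them to fold, and CLPB3 loosens aggregates. Proteins that cannot be kept are degraded, in the stroma by a CLP core that CLPC and CLPD feed, and in the thylakoid membrane by FTSH complexes that also take part in the repair of photosystem II. Loss of VAR2 gives variegated leaves, and loss of CLPC1 gives pale ones.

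*GUN1* itself lay at 25.7 to 39.3 scaled TPM in *gun1W* libraries, 24.5 to 36.1 in *gun1M*, 20.4 to 29.7 in *gun1G* and 44 to 46.4 in Col-0, so every mutant library was below every wild-type one. These levels are sums over all transcripts of the gene, so they do not show how much intact mRNA was present. The paper reports that reads were absent from the later part of this gene in all mutant seedlings. TPM is a transcript's share of all transcripts, corrected for length, and scaled TPM is TPM multiplied by 1 factor per library, set so that nuclear genes have equal medians across libraries. The factors were 0.538 to 0.691 in *gun1W*, 0.908 to 1.16 in *gun1M*, 1.16 to 1.27 in *gun1G* and 1.21 to 1.34 in Col-0, while plastid transcripts took 9.29% to 12.5%, 27.7% to 34.6%, 38.4% to 41.5% and 34.5% to 37.8% of TPM in the same order. Before scaling, the median nuclear gene was therefore 0.82 higher on the log2 scale in *gun1W*, 0.18 in *gun1M* and 0.03 in *gun1G* than in Col-0, and all changes below are relative to it. The 5 markers of photosynthetic cotyledon cells summed to 16542 to 19050 scaled TPM in *gun1W*, 25675 to 36069 in *gun1M*, 31455 to 39506 in *gun1G* and 24850 to 27354 in Col-0. The 5 root markers summed to 1052 to 1069, 971 to 1085, 994 to 1101 and 871 to 962 in these groups, so the libraries were not free of root transcripts. Seed markers summed to 23.8 at most, and of the meristem markers *STM* reached 1.42 while *CLV3* and *WUS* were at or near 0. Most of the photosynthetic sum came from *RBCS1A*, and the 5 markers did not move alike. Against Col-0, 1 was higher and 2 were lower in white seedlings (limma adjusted p below 0.05), with log2 changes from -1.18 to 2.09. *RBCS1B* was at 159.8, 100.4 and 82.5 scaled TPM there, and at 16.9, 26.0 and 35.2 in Col-0. Marbled seedlings had 2 higher and 0 lower, and green ones none of either. The part of these differences in the results was not tested. TPM keep no read depth, so the depth of the libraries is unknown and no counting interval is given. No source says whether the libraries of a group came from separate cultures, so p-values measure the spread between these libraries.

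In *gun1W*, 3 of the 9 tested genes were higher than in Col-0 (*CPN60A*, *cpHSC70-1*, *cpHSC70-2*) and 2 were lower (*CLPC1*, *CLPD*), at an adjusted p below 0.05 in limma. Among all 18373 tested gene models, 15.1% were higher and 12.5% lower. With only 9 genes, chosen with earlier results known, the counts are not read as an excess over this background. In *gun1M*, 2 were higher (*CPN60A*, *cpHSC70-2*) and 2 lower (*CLPC1*, *CLPD*), against 15.4% and 13.6% of all models. In *gun1G*, only *CPN60A* was higher and only *CLPD* lower, against 5.75% and 3.62%. A change of at least 2-fold was seen for 2 higher genes and 1 lower gene in *gun1W*, with 7.54% and 4.31% of all models, for 2 and 1 in *gun1M*, with 7.64% and 5.34%, and for none in *gun1G*, where 3.09% and 1.48% of all models passed that rule. At an unadjusted p below 0.05 in limma, 2 genes were higher and 1 lower in *gun1G*, close to the 14.1% and 12.6% of all models. The median log2 change of the 9 genes was 0.38, 0.16 and 0.22 in *gun1W*, *gun1M* and *gun1G*, with medians of -0.00, -0.01 and -0.00 over all models. All libraries were above all of Col-0 for 3, 2 and 2 of the 9 genes in *gun1W*, *gun1M* and *gun1G*, and below for 2 in each, while 23.6%, 22.4% and 18.8% of all models were above and 21.7%, 21.5% and 17.6% below in this sense. The 3 comparisons share the Col-0 libraries. On TPM as deposited, 7 genes were higher and 0 lower in white seedlings, where 65.8% and 1.71% of all models were. The counts were 2 and 1 in marbled seedlings, with 19.7% and 5.61% of all models, and 1 and 0 in green ones, with 3.31% and 1.61%. With the nuclear total as the scale they were 5 and 1 in white (18.8% and 6.24% of all models), 2 and 1 in marbled (17.9% and 7.85%) and 2 and 0 in green seedlings (6.86% and 1.34%).

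**Figure D1:**
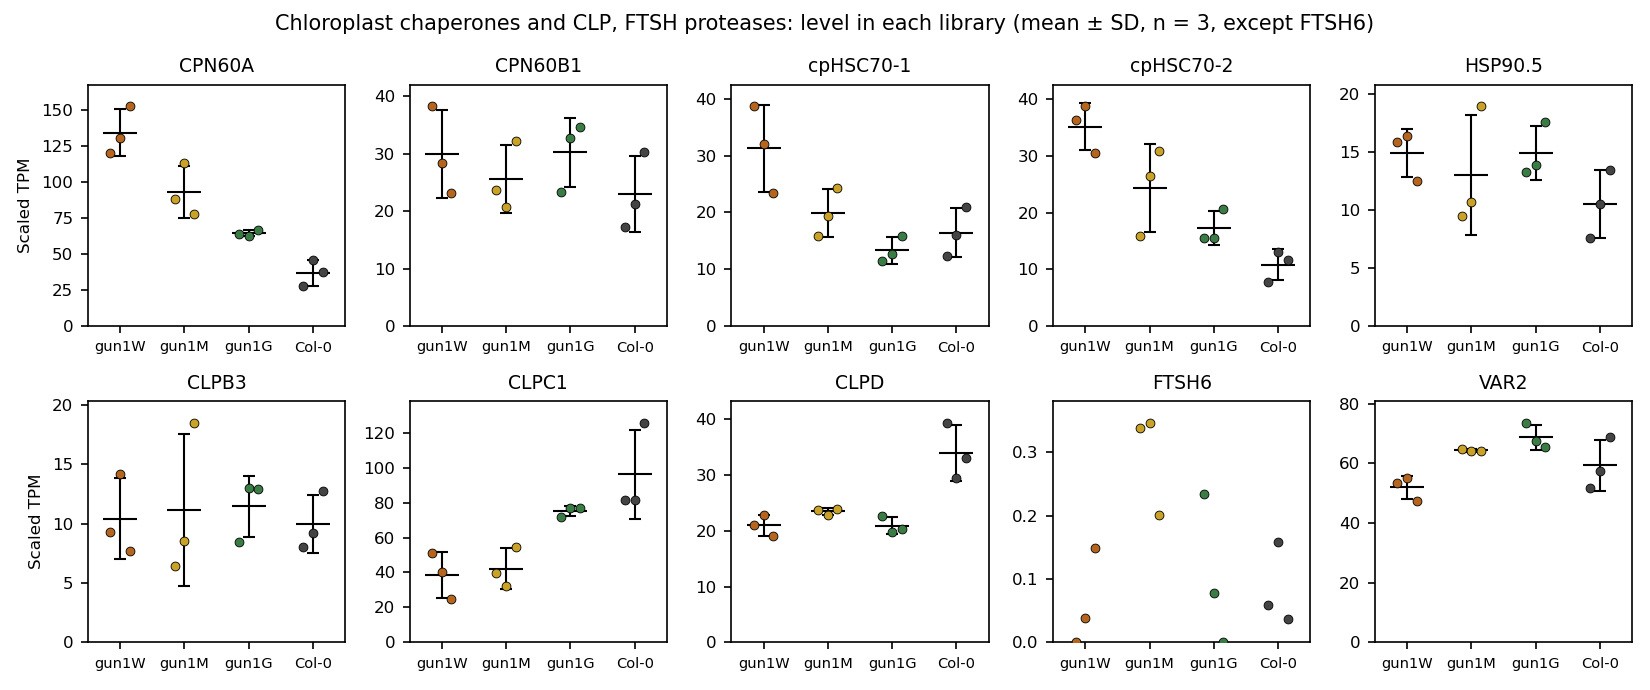
Scaled TPM (vertical axis, linear, from 0) of the 10 genes in *gun1W*, *gun1M*, *gun1G* and Col-0, 1 point per library, with the mean and SD of 3 libraries except for *FTSH6*. *CPN60A* runs between 120.1 and 152 in *gun1W* and between 27.7 and 45.5 in Col-0, whereas *CLPC1* runs between 24.7 and 50.9 in *gun1W* and between 81.2 and 126 in Col-0.

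*CPN60A*, on chromosome 2 at 11926446 to 11929488 of TAIR10.1, encodes the α subunit of the plastid chaperonin, which folds the large subunit of Rubisco among other proteins. Its level was 120.1, 130.3 and 152 scaled TPM in *gun1W*, 88.3, 113 and 77.9 in *gun1M*, 63.7, 62.4 and 66.4 in *gun1G*, and 27.7, 45.5 and 37.6 in Col-0. The 4 groups did not overlap and stood in the order white, marbled, green, wild type. The log2 change against Col-0 was 1.86 ± 0.19 (SE, n = 3 each; limma adjusted p = 6.1e-05) in *gun1W*, a 3.62-fold rise, 1.32 (adjusted p = 0.00073) in *gun1M* and 0.81 (adjusted p = 0.024) in *gun1G*. Neighbours in that order did not pass between *gun1W* and *gun1M* (0.53, adjusted p = 0.327) or *gun1M* and *gun1G* (0.51, adjusted p = 0.147). The rise in *gun1G* did not pass without *gun1G* 1, 2 or 3, Col-0 1 or Col-0 3 (adjusted p up to 0.096). In bulk RNA such as this, more or fewer cells of a type and more or less RNA per cell cannot be told apart.

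*CPN60B1*, the β subunit, showed no such change on scaled TPM. It lay at 38.2, 28.4 and 23.2 scaled TPM in *gun1W*, 23.8, 20.8 and 32.2 in *gun1M*, 23.4, 32.7 and 34.6 in *gun1G*, and 17.3, 21.2 and 30.3 in Col-0. All 4 groups overlapped. The log2 change was 0.38 ± 0.25 in *gun1W* (limma adjusted p = 0.286; 95% interval -0.17 to 0.92), 0.16 in *gun1M* and 0.40 in *gun1G*, none of which passed. Over 11 other settings the change in *gun1W* ran from 0.10 to 1.39. It passed as higher on TPM as deposited, where 65.8% of all models did, and with the nuclear total, where 18.8% did.

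The β subunit is encoded by several genes, and it was *CPN60B2*, the closest copy of *CPN60B1*, that moved with *CPN60A*. Its level was 89.9, 83.2 and 73.8 scaled TPM in *gun1W*, 23.9, 37.9 and 44.2 in *gun1M*, 13.6, 14.1 and 16.9 in *gun1G*, and 6.42, 8.93 and 7.54 in Col-0, again with no overlap between any groups. The log2 change against Col-0 was 3.28 (limma adjusted p = 2.6e-06) in *gun1W*, 2.04 (adjusted p = 9.5e-05) in *gun1M* and 0.89 (adjusted p = 0.024) in *gun1G*. The last of these did not pass without *gun1G* 1 or 3, or Col-0 1 or 3. *CPN60B3* changed by -0.27, -0.32 and 0.17 and *CPN60B4* by 0.13, 0.51 and 0.25 in the 3 phenotypes, and neither passed in any. *CPN60A2*, a second α gene, reached only 1.49 scaled TPM in any library and was not tested.

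The make-up of the β pool differed between phenotypes. *CPN60B2* supplied 67.8%, 71.4% and 73.5% of the summed TPM of the β genes in *gun1W*, 46.1%, 59.7% and 54.4% in *gun1M*, 31.0%, 27.7% and 29.0% in *gun1G*, and 22.5%, 26.1% and 17.1% in Col-0. It was the most abundant β transcript in every white and marbled library, and was second to *CPN60B1* in the green and wild-type ones. The ratio of *CPN60B1* to *CPN60B2* was 0.43, 0.34 and 0.31 in *gun1W*, 0.99, 0.55 and 0.73 in *gun1M*, 1.72, 2.31 and 2.05 in *gun1G*, and 2.70, 2.38 and 4.02 in Col-0, without overlap between groups. In contrast, *CPN60A* over the summed β genes was 0.91, 1.12 and 1.52 in *gun1W*, 1.70, 1.78 and 0.96 in *gun1M*, 1.45, 1.22 and 1.14 in *gun1G*, and 0.97, 1.33 and 0.85 in Col-0. All groups overlapped in this α to β ratio (exact permutation test, two-sided, p = 0.6 for *gun1W* and 0.3 for the other 2 phenotypes against Col-0). Such ratios within a library do not depend on the library factor. They were added after the values had been seen, and with 3 against 3 libraries the exact permutation test cannot go below p = 0.1, the value for each comparison without overlap, or 0.194 after Benjamini-Hochberg adjustment over 60 comparisons of ratios. The coding sequences of *CPN60B1* and *CPN60B2* are 87.5% identical with at most 59 identical bases in a row, so the assignment of some reads between them is uncertain.

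**Figure D2:**
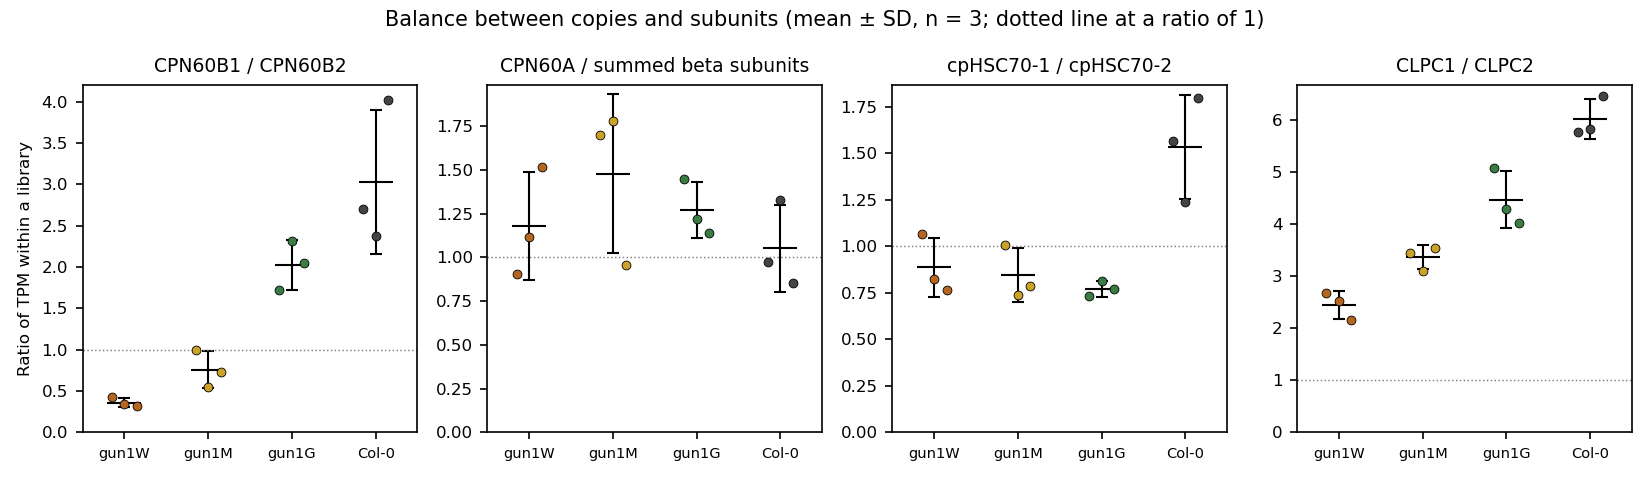
Ratio of TPM within each library (vertical axis, from 0) of *CPN60B1* to *CPN60B2*, *CPN60A* to the summed β genes, *cpHSC70-1* to *cpHSC70-2* and *CLPC1* to *CLPC2*, 1 point per library with the mean and SD of 3. *CPN60B1* over *CPN60B2* lies at 0.31 to 0.43 in *gun1W* and at 2.38 to 4.02 in Col-0, while the α to β ratio overlaps in all 4 groups.

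Heat shock elements, the binding motif of heat shock factors, were looked for in the promoters, since several of these genes belong to families known for heat induction. The motif searched was 2 alternating units of GAA and TTC with NN between them, which reads as the same element on both strands, in the 250 bases before and 50 bases after each gene start (RefSeq, TAIR10.1, all 10 genes matched). It was present in 5 of the 10 genes, against 19.3% of 27438 protein-coding nuclear promoters. With only 10 genes, chosen with earlier results known, this share is not read as an excess. Windows of up to 30 bases around it in these 5 genes follow, shown because the presence of the letters can be set against the changes reported for each, 5′ to 3′ along the gene, with the units in capitals:
*CPN60A*: acgaatgcaaaGAAtcTTCtggatcctttt
*cpHSC70-2*: caaccattTTCtaGAAccTTCcacttctt
*CLPB3*: catcccgatggTTCacGAAgactccggcgt
*FTSH6*: tctctggatcaTTCaaGAAgacagttatat
*VAR2*: cacgtaagttcTTCacGAAccacatctgtt
The windows lie at chr2:11926441-11926470 (*CPN60A*, plus strand), chr5:20303341-20303369 (*cpHSC70-2*, plus), chr5:5018463-5018492 (*CLPB3*, minus), chr5:4952967-4952996 (*FTSH6*, minus) and chr2:13174262-13174291 (*VAR2*, plus). In *CPN60A* and *cpHSC70-2* the motif begins at base 7 and base 16 of the gene. The *cpHSC70-2* stretch is the only one of the 10 with 3 alternating units, which 0.481% of all promoters hold. *CLPB3* and *VAR2* also hold the motif although neither gene passed the test in any phenotype on scaled TPM. *cpHSC70-1*, *CPN60B1*, *HSP90.5*, *CLPC1* and *CLPD* had no match. Of 48 partner genes of the plastid machinery 12 held it, a share of 25%. Among them were *CPN60B2*, *HSP21*, *CPN20*, *FTSHI1* and *SPPA*, which rose in *gun1W*, and *J11*, which fell. The others with the motif did not pass in *gun1W* or, for *DJA4*, were not tested. Of the cytosolic genes named below, all of which rose in *gun1W*, *HSP101* held it, whereas *HSP70-2* and *HSP90.1* had no match. A match is a stretch of letters and not a measured binding site.

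Of the HSP70 pair, *cpHSC70-2* rose in white and marbled seedlings and *cpHSC70-1* in white ones. *cpHSC70-2* lay at 36.2, 38.7 and 30.5 scaled TPM in *gun1W*, 15.8, 26.4 and 30.8 in *gun1M*, 15.6, 15.6 and 20.6 in *gun1G*, and 7.83, 13.0 and 11.7 in Col-0. Every mutant library was above every Col-0 library, and *gun1W* and *gun1G* each overlapped *gun1M*. The log2 change was 1.63 ± 0.24 (limma adjusted p = 0.00069) in *gun1W* and 1.08 (adjusted p = 0.0078) in *gun1M*, whereas 0.64 in *gun1G* missed the threshold (adjusted p = 0.118; interval 0.11 to 1.18).

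*cpHSC70-1*, whose product does the same work in the stroma, had levels of 38.7, 32.0 and 23.4 scaled TPM in *gun1W*, 15.9, 19.4 and 24.3 in *gun1M*, 11.4, 12.7 and 15.9 in *gun1G*, and 12.3, 16.0 and 20.9 in Col-0. The white libraries were above Col-0, and the marbled and green ones overlapped it. The log2 change was 0.89 ± 0.23 (limma adjusted p = 0.0157) in *gun1W*, and it was 0.27 in *gun1M* and -0.26 in *gun1G*. The call in *gun1W* did not hold without *gun1W* 2 (adjusted p = 0.0504) or Col-0 1 (0.0681). The ratio of *cpHSC70-1* to *cpHSC70-2* was 1.07, 0.83 and 0.77 in *gun1W*, 1.01, 0.74 and 0.79 in *gun1M*, 0.73, 0.82 and 0.77 in *gun1G*, and 1.57, 1.24 and 1.80 in Col-0. It was lower in every mutant library than in any Col-0 library (exact permutation p = 0.1 for each phenotype), and the 3 phenotypes overlapped one another. The pair shares 85.0% of its coding bases, with runs of up to 36 identical bases, so part of the reads may be assigned to either gene.

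*HSP90.5*, the stromal HSP90, and *CLPB3*, which works with HSP70 on aggregated proteins, did not pass in any phenotype on scaled TPM. *HSP90.5* lay at 15.8, 16.4 and 12.5 scaled TPM in *gun1W*, 9.42, 10.7 and 18.9 in *gun1M*, 13.2, 13.9 and 17.6 in *gun1G*, and 7.59, 10.5 and 13.4 in Col-0, with log2 changes of 0.49, 0.26 and 0.49 and an interval in *gun1W* of -0.06 to 1.04. Each mutant phenotype overlapped Col-0. *CLPB3* lay at 9.34, 14.2 and 7.75 in *gun1W*, 6.47, 8.58 and 18.5 in *gun1M*, 8.49, 13.0 and 12.9 in *gun1G*, and 8.03, 9.22 and 12.8 in Col-0, with log2 changes of 0.04, 0.05 and 0.18. All 4 groups overlapped, and the interval of -0.69 to 0.77 in *gun1W* leaves room for a change of either sign. On TPM as deposited, where 65.8% of all models were higher, both genes passed as higher in *gun1W*. *HSP90.5* also passed there with the nuclear total.

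*CLPC1*, on chromosome 5 at 20715453 to 20720681, encodes the main HSP100 ATPase of the stroma, which unfolds substrates for the CLP protease and also serves protein import. It was at 50.9, 40.3 and 24.7 scaled TPM in *gun1W*, 39.9, 32.0 and 54.8 in *gun1M*, 71.9, 76.6 and 76.9 in *gun1G*, and 81.2, 81.7 and 126 in Col-0. White and marbled libraries overlapped each other and were all below the green ones, which in turn were all below Col-0. The log2 change was -1.32 ± 0.27 (limma adjusted p = 0.0041) in *gun1W*, 0.40 times the Col-0 level, and -1.17 (adjusted p = 0.0082) in *gun1M*, while -0.32 in *gun1G* did not pass (adjusted p = 0.472). On TPM as deposited the change in *gun1W* was -0.29 and did not pass (adjusted p = 0.355).

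The fall of *CLPC1* was not shared by its close copy *CLPC2*. *CLPC2* lay at 19.0, 16.0 and 11.5 scaled TPM in *gun1W*, 11.6, 10.3 and 15.4 in *gun1M*, 14.2, 17.8 and 19.1 in *gun1G*, and 14.1, 14.0 and 19.4 in Col-0, with log2 changes of -0.04, -0.33 and 0.11, none of which passed. The *CLPC1* to *CLPC2* ratio was 2.68, 2.53 and 2.16 in *gun1W*, 3.45, 3.10 and 3.55 in *gun1M*, 5.08, 4.30 and 4.02 in *gun1G*, and 5.77, 5.82 and 6.46 in Col-0. *CLPC1* was thus the more abundant transcript of the pair in all 12 libraries, with a ratio that separated the 4 groups without overlap (exact permutation p = 0.1 for each pair of groups). The coding sequences are 77.3% identical, with up to 38 identical bases in a row.

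*CLPD*, known as a gene induced by dehydration and in senescence, was lower in all 3 phenotypes. Its level was 21.0, 22.9 and 19.1 scaled TPM in *gun1W*, 23.8, 22.7 and 23.8 in *gun1M*, 22.6, 19.8 and 20.3 in *gun1G*, and 39.3, 29.4 and 32.9 in Col-0. The 9 mutant libraries lay close together, and all were below the 3 of Col-0. The log2 change was -0.66 ± 0.13 (limma adjusted p = 0.0044) in *gun1W*, -0.50 (adjusted p = 0.0170) in *gun1M* and -0.66 (adjusted p = 0.0135) in *gun1G*. On TPM as deposited the change in *gun1W* turned to 0.35, and *CLPD* passed in none of the phenotypes on that scale or with the nuclear total. The calls in *gun1M* and *gun1G* were also lost without Col-0 1 (adjusted p = 0.0733 and 0.0641), and that in *gun1M* without *gun1M* 2 (0.0564).

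*VAR2* encodes the main type B subunit of the thylakoid FTSH complex. It was at 53.3, 55.0 and 47.4 scaled TPM in *gun1W*, 64.9, 64.1 and 64.0 in *gun1M*, 73.5, 67.4 and 65.5 in *gun1G*, and 51.7, 57.5 and 68.7 in Col-0. Each phenotype overlapped Col-0, and all white libraries were below all marbled and green ones. The log2 changes of -0.18, 0.12 and 0.22 did not pass (limma adjusted p = 0.328, 0.497 and 0.315), with an interval of -0.47 to 0.11 in *gun1W*. On TPM as deposited, where 65.8% of all models were higher in *gun1W*, *VAR2* was at 0.85 and passed as higher. On scaled TPM its partners *FTSH1* and *FTSH5* (type A) and *FTSH8* (type B) did not pass in any phenotype either, with log2 changes of -0.16, 0.02 and 0.25 in *gun1W*. The ratio of type B to type A transcripts was 0.54, 0.60 and 0.61 in *gun1W*, 0.63, 0.70 and 0.57 in *gun1M*, 0.72, 0.63 and 0.61 in *gun1G*, and 0.57, 0.62 and 0.63 in Col-0. Each phenotype overlapped Col-0, while the white libraries were below the green ones (exact permutation p = 0.1, the smallest possible). *VAR2* and *FTSH8* are 86.7% identical in their coding bases, so reads may be shared here too.

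*FTSH6*, a protease gene of senescence and heat whose product degrades HSP21, was barely present. It was listed at 0, 0.0382 and 0.150 scaled TPM in *gun1W*, 0.338, 0.346 and 0.200 in *gun1M*, 0.234, 0.0776 and 0 in *gun1G*, and 0.0584, 0.158 and 0.0365 in Col-0. No library reached the 1 TPM needed for testing, so no change is given.

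**Figure D3:**
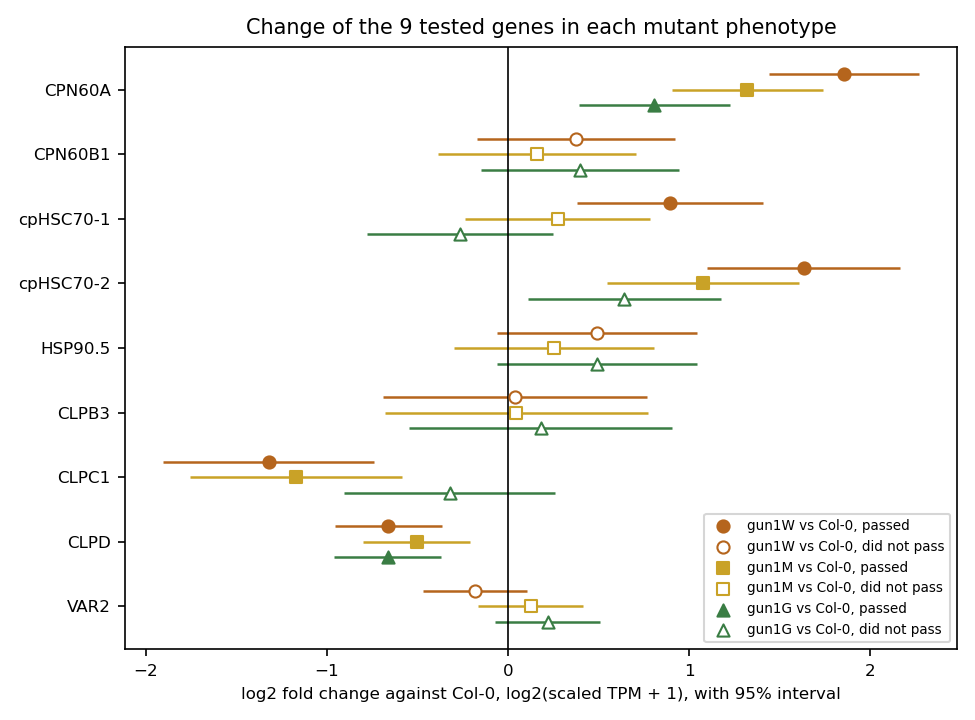
Log2 change against Col-0 on the log2(scaled TPM + 1) scale (horizontal axis) of the 9 tested genes in *gun1W*, *gun1M* and *gun1G*, with 95% intervals and filled symbols for an adjusted p below 0.05. *CPN60A* is at 1.86, 1.32 and 0.81, *CLPC1* at -1.32, -1.17 and -0.32, and *CLPD* at -0.66, -0.50 and -0.66.

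The phenotypes were also compared with each other, which leaves the genotype the same. In *gun1W* against *gun1G*, 3 of the 9 genes were higher and 1 lower, against 7.16% and 5.91% of all tested models. *cpHSC70-1* was 1.16 higher on the log2 scale (limma adjusted p = 0.0083), *CPN60A* 1.05 higher (adjusted p = 0.0047) and *cpHSC70-2* 0.99 higher (adjusted p = 0.0211), while *CLPC1* was lower at -1.0 (adjusted p = 0.0300). *CPN60A* and *cpHSC70-1* were at least 2-fold higher, a rule that 3.06% of all models passed, with 1.94% in the other direction. All white libraries were above all green ones for 3 genes and below for 2, against 16.9% and 16.6% of all models. The *CLPC1* call did not pass without *gun1W* 2 or 3 or without any 1 of the green libraries (adjusted p up to 0.0986), and the *cpHSC70-2* call did not pass without *gun1W* 1 or 2 or *gun1G* 1 or 2 (up to 0.0774). On TPM as deposited 7 genes were higher and 0 lower, with 66.2% and 0.963% of all models. *CLPD* differed by 0.00 ± 0.13 (SE) between these phenotypes, and *VAR2* was at -0.40 (adjusted p = 0.068).

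In *gun1M* against *gun1G* none of the 9 genes passed in limma with 2.56% of all models higher and 1.59% lower. At an unadjusted p below 0.05, 2 were higher and 1 lower, with 11.6% and 10.1% of all models. All marbled libraries were above all green ones for 3 genes and below for 2, against 12.2% and 11.2%. The largest changes were -0.85 for *CLPC1* (adjusted p = 0.095) and 0.54 for *cpHSC70-1* (adjusted p = 0.21). In *gun1W* against *gun1M* none passed in limma either, where 0.0544% of all models were higher and 0.131% lower. At an unadjusted p below 0.05, 3 were higher and 1 lower, with 5.58% and 5.17% of all models, and on TPM as deposited 7 were higher, with 54.6% of all models. *CPN60A* alone was above, and *VAR2* alone below, in all white against all marbled libraries, as were 7.16% and 7.11% of all models. Summed, the 10 genes stood at 384, 378 and 341 scaled TPM in *gun1W*, 289, 318 and 346 in *gun1M*, 304, 314 and 331 in *gun1G*, and 253, 284 and 354 in Col-0. Within that sum *CPN60A* took 31.3%, 34.5% and 44.7% in *gun1W* and 10.9%, 16.0% and 10.6% in Col-0, whereas *CLPC1* took 13.3%, 10.7% and 7.25% in *gun1W* and 32.1%, 28.7% and 35.5% in Col-0. The most abundant transcript of the set was therefore *CPN60A* in white seedlings and *CLPC1* in the wild type.

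The other genes of the same machinery were taken from lists by annotated function. Of the 5 tested chaperonin and co-chaperonin partners, 2 rose in *gun1W* and 1 each in *gun1M* and *gun1G*, with *CPN60B2* in all 3, where 15.1%, 15.4% and 5.75% of all models rose. The second gene in *gun1W* was *CPN20*, the co-chaperonin, at 162, 125 and 120.3 scaled TPM, against 57.3, 67.3 and 71.7 in Col-0 (log2 change 1.03, limma adjusted p = 0.0017). The white libraries were all above Col-0. Changes of 0.38 in *gun1M* and 0.47 in *gun1G* did not pass. Of 2 other plastid chaperones, *HSP21*, a small heat shock protein that holds unfolding proteins, stood at 14.2, 28.3 and 18.1 scaled TPM in *gun1W*, 34, 20.2 and 33.9 in *gun1M*, 0.12, 0.12 and 0.06 in *gun1G*, and 0.06, 0 and 0 in Col-0, and AT5G55220 passed in no phenotype. *HSP21* was thus near 0 in green and wild-type seedlings and above 14 in every white and marbled library.

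Among 7 tested HSP70 and J-domain partners, 3 fell in each phenotype, with 12.5%, 13.6% and 3.62% of all models, all of them genes of small J proteins, which stimulate the ATPase of HSP70. *J8* was at 40.2, 22.8 and 20.5 scaled TPM in *gun1W*, 45.4, 16.1 and 14.5 in *gun1M*, 48.9, 104 and 57.6 in *gun1G*, and 319, 179 and 428 in Col-0 (log2 change -3.40, -3.66 and -2.11, limma adjusted p = 0.0004, 0.0003 and 0.0172). All mutant libraries were far below the lowest of Col-0. *J20*, whose product brings inactive enzyme of the plastid isoprenoid pathway to HSP70, fell by 2.61, 2.79 and 1.89 on the log2 scale. *J11* fell by 0.89, 1.04 and 0.89, although its direction in *gun1W* turned to 0.14 on TPM as deposited and the call there was lost without Col-0 1 (adjusted p = 0.0635). *DJA5* was 0.58 higher in *gun1W* (adjusted p = 0.0234), a call lost on leaving out any of 4 libraries. Thus *cpHSC70-2* and the 3 small J genes changed in opposite directions in white and marbled seedlings.

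The proteolytic CLP core stayed between -0.67 and 0.69 on the log2 scale against Col-0. Of its 10 nuclear genes 1 fell in *gun1W* (*CLPR1*, -0.67, limma adjusted p = 0.0205), as did 12.5% of all models. In *gun1M* 0 passed, where 15.4% of all models were higher and 13.6% lower. In *gun1G* 1 rose, as did 5.75% of all models. The medians of the list were -0.16, 0.01 and 0.30. Against *gun1G*, 6 were lower in *gun1W*, with 5.91% of all models, a median of -0.54 and examples in the inactive subunits *CLPR1* (-0.86), *CLPR4* (-0.58) and *CLPR2* (-0.52). On TPM as deposited this turned to 3 higher and 0 lower, where 66.2% and 0.963% of all models were. On that scale *CLPR1* against Col-0 turned to 0.34. The only plastid-encoded subunit, *clpP1*, stood at 3379, 3222 and 3093 scaled TPM in *gun1W*, 7198, 5711 and 5696 in *gun1M*, 4839, 5966 and 6255 in *gun1G*, and 5661, 5728 and 5652 in Col-0. White libraries were below all others. Its log2 change in a fit of the 97 plastid gene models was -0.81 ± 0.16 in *gun1W* (limma adjusted p = 0.00037), where 79.4% of those models were lower and their median was -2.36, and on TPM as deposited it was 0.23. It was 0.12 in *gun1M* and -0.01 in *gun1G*, neither of which passed. On TPM as deposited *clpP1* passed as higher in *gun1M*, at 0.38 (limma adjusted p = 0.043). Among the CLP adaptors and the second CLPC, AT1G68660 was 0.68 higher in *gun1M* (adjusted p = 0.0437) and nothing else passed.

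Of 9 tested plastid FTSH partners, 2 were higher in *gun1W*, near the 15.1% of all models. They were *FTSHI1* (0.44, limma adjusted p = 0.0478), which encodes an FTSH-like protein without protease activity, and AT3G02450 (0.67, adjusted p = 0.0096). None passed in *gun1M* or *gun1G*. Among 10 DEG and other plastid proteases, 4 were higher in *gun1W* and 3 in *gun1M*, 0 passed in *gun1G*, and none was lower in any, with 15.1%, 15.4% and 5.75% of all models higher. The 4 were the lumenal protease *DEG8* (0.80), the intramembrane protease *EGY1* (0.67), *PREP1* (0.59), which clears cleaved targeting peptides, and the thylakoid protease *SPPA* (0.53), with medians for the list of 0.26, 0.16 and 0.01 in *gun1W*, *gun1M* and *gun1G*. The plot of partner genes shows no change beyond 1 on the log2 scale against Col-0 in the CLP core, FTSH and other protease lists. The list of CLP chaperones and adaptors shows none either. Such changes appear in the chaperonin list, the HSP70 and J-domain list and the list of other plastid chaperones.

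**Figure D4:**
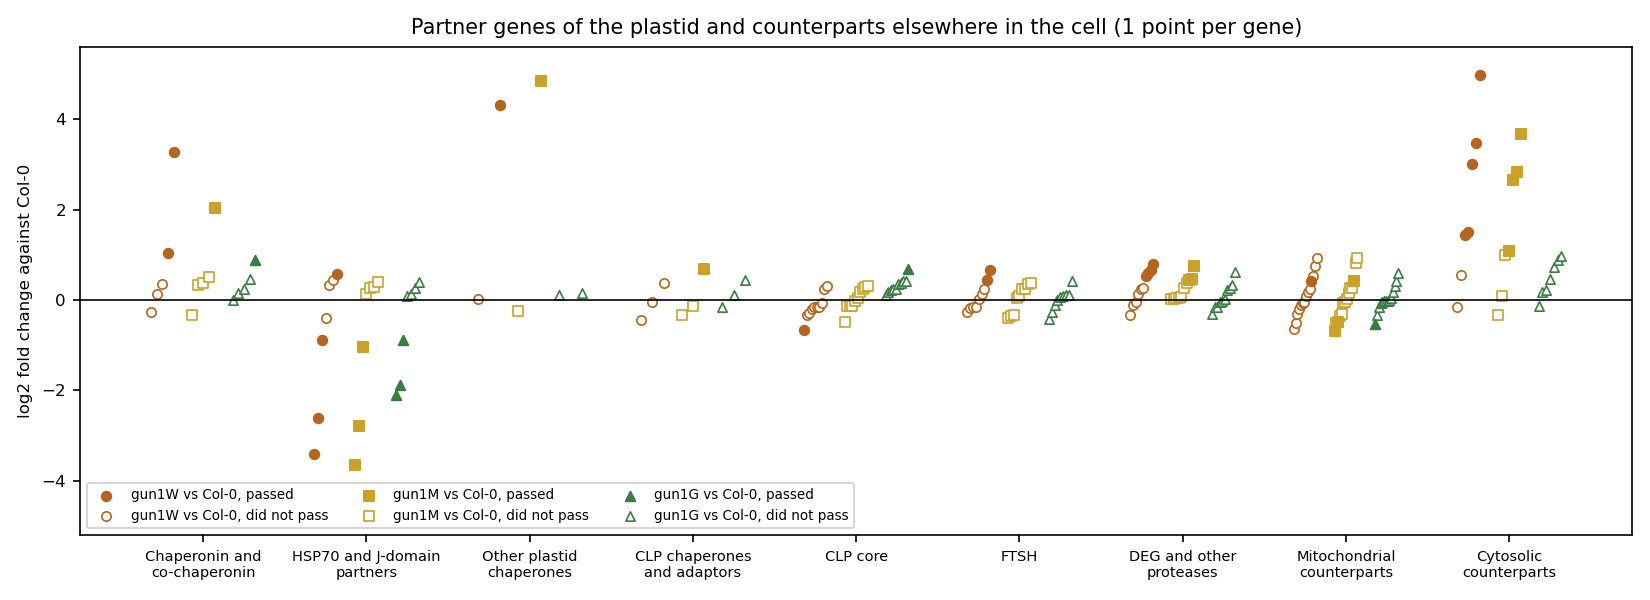
Log2 change against Col-0 (vertical axis) of each tested partner gene, 1 point per gene, grouped by list (horizontal axis), in *gun1W*, *gun1M* and *gun1G*, with filled symbols for an adjusted p below 0.05. *CPN60B2* tops the chaperonin list at 3.28 in *gun1W*, *J8* lies lowest at -3.66 in *gun1M*, and the CLP core stays between -0.67 and 0.69.

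The genes whose levels ran most like each gene were sought among 8795 nuclear genes by Pearson's r of log2 levels over the 12 libraries. Those values share the library factors and the 4 groups, so r describes a likeness of pattern and has no test. *CPN60A* was nearest to *EMB3143*, *UTR6* and AT2G00480 (0.97 each), and *CLPC1* to AT4G28025, *CIP7* and *CAC3* (0.98 each). *cpHSC70-2* was nearest to *EMB2759* (0.96), *CPN60B2* (0.96) and *ABC1* (0.95), so a chaperonin subunit stood among its first 3 of all these genes. *cpHSC70-1* was nearest to AT2G47970 (0.96), AT2G07747 (0.96) and *AFO* (0.94). *CPN60B1* was nearest to *NTRC* (0.93), a plastid thioredoxin reductase, and to *PCB2* (0.91), an enzyme of chlorophyll synthesis. *VAR2* was nearest to *SBE2.2* (0.91), *GDCH* (0.90) and AT1G01080 (0.90). *CLPD* was nearest to AT5G61530 (0.94), *HSP90.5* to AT3G56290 (0.93), and *CLPB3* to *COR47* (0.91), a dehydrin gene of cold response. Within the set, r was 0.91 between *CPN60A* and *cpHSC70-2*, -0.87 between *CPN60A* and *CLPC1*, -0.81 between *CPN60A* and *CLPD*, and 0.86 between *CPN60B1* and *HSP90.5*.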

How the data were processed

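The deposited TPM of 168507 transcripts in 12 libraries were made by the authors with Salmon, after Trimmomatic and FastQC, per the submitters' processing notes, which also list STAR and TAIR10. The methods name the AtRTD3 transcriptome. RNA was depleted of rRNA and libraries were stranded. Per gene model, TPM were summed and multiplied by a library factor from the median log2 ratio over 12490 nuclear genes with at least 1 TPM in all libraries. Log2(scaled TPM + 1) of models with at least 1 TPM in 3 libraries was fitted with limma 3.58.1 (trend, R 4.3.3), with Benjamini-Hochberg adjustment over the 18373 models outside the plastid, and the fold understates changes of low genes. The 97 plastid models were fitted apart. A gene passed at an adjusted p under 0.05. Copies were aligned with MAFFT 7.526, and ratios tested exactly in SciPy 1.17.1. The steps were tested on simulated data. All 10 genes were named, the paralogs, up to 4 partners per list and 3 cytosolic or mitochondrial counterparts by smallest adjusted p in *gun1W* against Col-0, and 3 neighbours in pattern. Members and lists were chosen with earlier results of these data known. 7 listed genes with another symbol in RefSeq were left out.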

Additional observations from a re-analysis of the deposited data

Results flagged for a closer look

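White and green seedlings have the same genotype, and 15 of the 44 named genes differed between them in the test of the difference itself (limma, adjusted p below 0.05). Of all models 7.16% were higher and 5.91% lower, but partners were named for their p in *gun1W* against Col-0, with the same white libraries, so the count supports nothing. Among the genes described first, the log2 difference of *gun1W* over *gun1G* was 1.16 for *cpHSC70-1*, 1.05 for *CPN60A*, 0.99 for *cpHSC70-2* and -1.0 for *CLPC1*. Among plastid partners it was 4.21 for *HSP21*, 2.39 for *CPN60B2*, 0.82 for *EGY1*, 0.69 for *SPPA* and 0.57 for AT3G02450, and the CLP core subunits *CLPR1*, *CLPR4* and *CLPR2* were at -0.86, -0.58 and -0.52. Among cytosolic counterparts it was 4.01 for *HSP70-2*, 3.02 for *HSP90.1* and 2.78 for *HSP101*.

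Marbled seedlings differed from green ones by 4.75 for *HSP21*, 2.69 for *HSP70-2*, 2.44 for *HSP101*, 2.38 for *HSP90.1* and 1.16 for *CPN60B2*. The last of these was lost without *gun1M* 2 or *gun1G* 2 (adjusted p up to 0.0564). White seedlings differed from marbled ones in *CPN60B2* alone of the named genes, at 1.23, a call lost in 11 of 12 fits that left out 1 library (adjusted p up to 0.186). With 3 libraries per group, no search for single libraries far from the others of their group was made.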

How the results depend on the processing

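Of the fold changes of the 9 genes against Col-0, 306 kept their direction and their side of the threshold on leaving out 1 library, 10 missed the threshold and 8 changed sign. Under the other alternatives 276 did, 6 newly passed, 7 missed the threshold and 8 changed sign. On TPM as deposited, *gun1W* against Col-0 gave 7 higher and 0 lower genes, *gun1M* 1 lower, *gun1G* 0 lower, *gun1W* against *gun1G* 7 higher and 0 lower, and *gun1W* against *gun1M* 7 higher. The nuclear total gave 5 higher and 1 lower in *gun1W*, 1 lower in *gun1M*, and 2 higher and 0 lower in *gun1G*. With the share of the abundant RNA AT3G06365 (0.219% to 19.5% of TPM) as a covariate, there were 0 higher in *gun1G*, 1 higher in *gun1W* against *gun1G* and 1 lower in *gun1M* against *gun1G*. Of all models, 3.46%, 5.06% and 3.91% were called in these 3 ways. Lower genes in *gun1W* against *gun1G* numbered 2 after quantile normalization and 0 without the filter, where 6.86% and 3.61% of all models were lower. The cause was not tested. Leaving out 1 library gave 2 to 3 higher and 2 to 2 lower genes in *gun1W*, 2 to 2 and 1 to 2 in *gun1M*, 0 to 1 and 0 to 1 in *gun1G*, and 2 to 3 and 0 to 1 in *gun1W* against *gun1G*. Of all models, these fits called 10.7% to 16.0% higher and 6.83% to 13.4% lower in *gun1W*. The ranges were 10.4% to 16.3% and 6.66% to 15.7% in *gun1M*, and 1.93% to 6.53% and 0.592% to 4.48% in *gun1G*. For *gun1W* against *gun1G* they were 3.84% to 7.89% and 3.19% to 6.74%. Asking for 3 alternating units left 1 gene with the heat shock element, against 5.

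Sign changed on TPM as deposited for *CLPD* (0.35), *VAR2* (0.85) and *clpP1* (0.23) in *gun1W* and *clpP1* (0.039) in *gun1G*, and with the nuclear total for *VAR2* in *gun1W* (0.063). With the covariate it changed for *cpHSC70-1* (0.017) and *CLPC1* (0.023) in *gun1G* and *CLPB3* (-0.29) in *gun1W*, and after quantile normalization for *CLPB3* in *gun1W* (-0.043) and *gun1M* (-0.024). Without 1 library, *CLPB3* ranged from -0.19 to 0.21 in *gun1W* and -0.36 to 0.34 in *gun1M*, *CPN60B1* from -0.014 to 0.37 and *HSP90.5* from -0.028 to 0.44 in *gun1M*.

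Same-numbered libraries of different groups deviated together with r between -0.29 and 0.31, and over 0.1 in 4 of 18 pairs. For libraries of different numbers r lay between -0.42 and 0.45, and over 0.1 in 9 of 36 pairs. Such values cannot show whether libraries of the same number were grown or processed together. With a replicate block, lower genes in *gun1W* against *gun1G* numbered 0 against 1, with 4.94% of all models lower, and no other count of the 9 genes changed. A paired fit was otherwise not used.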

Other observations

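Counterparts of these genes work in the cytosol and the mitochondria. Of 7 tested cytosolic HSP70, HSP90 and HSP101 genes, 5 were higher in *gun1W*, 4 in *gun1M* and 0 in *gun1G* (limma, adjusted p below 0.05, with 15.1%, 15.4% and 5.75% of all models higher), led in *gun1W* by *HSP70-2* (4.98), *HSP90.1* (3.49) and the disaggregase *HSP101* (3.0 on the log2 scale). Of 14 mitochondrial chaperones and proteases, 1 was higher in *gun1W* against 15.1% of all models, the inner membrane protease *FTSH10* (0.42), and 1 was higher and 2 were lower in *gun1M*, with 15.4% and 13.6% of all models, and medians of 0.03 and -0.01. In *gun1G* 0 were higher and 1 was lower, with 5.75% and 3.62% of all models and a median of -0.01. The mitochondrial chaperonin *HSP60* was at 0.54 in *gun1W* (adjusted p = 0.0838) and did not pass.

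The transcript that supplied most of a gene's TPM was the same in every library for *CPN60A* (74.9% to 85.9%), *CPN60B1* (83.8% to 94.4%), *cpHSC70-1* (67.5% to 98.1%) and *VAR2* (89.1% to 96.7%). *cpHSC70-2* was split between transcripts. Its transcript 8 held 55.7% to 70.2% in *gun1W*, 57.5% to 66.5% in *gun1M*, 27.0% to 53.6% in *gun1G* and 0% to 35.9% in Col-0, and its transcript 26 held 11.9% to 23.0%, 0% to 12.6%, 19.0% to 50.1% and 38.6% to 64.0% in the same groups. *CLPD* transcript 11 held 61.1% to 73.0% in *gun1W*, 72.3% to 81.0% in *gun1M*, at least 82.6% in *gun1G* and 85.6% to 91.8% in Col-0. These are shares estimated by Salmon between overlapping transcripts, given as values without a test.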
